A study of Mus musculus with 26 samples.

Results

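The granin family and its close associates are soluble cargo of dense-core vesicles, the storage organelles from which neurons and endocrine cells release peptides on demand. Transcripts of 7 such genes were followed here, namely Chga, Chgb, Scg2, Scg3, Scg5, Vgf and Pcsk1n. They were taken by symbol, each matched 1 entry among the 23107 genes of the deposited count table, and all 7 passed the filter on low counts in every comparison. No library held any of them at 0.

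Granins are acidic proteins that aggregate with prohormones in the trans-Golgi network and are packed with them into budding vesicles. Prohormone convertases cut many of them, together with the prohormones, into smaller peptides, and the binding proteins of the convertases travel in the same vesicles. Neurons that release gonadotropin-releasing hormone (GnRH), the hypothalamic peptide that drives the pituitary and through it the gonads, store it in vesicles of this kind at their terminals.

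RNA came from punches of the preoptic area of adult mice aged 55 to 165 days. All carried the genotype GnRH CRE x Floxed L10a-GFP, in which Cre recombinase under Gnrh1 control switches on a GFP-tagged ribosomal protein L10a, so the tag marks cells in which that Cre has been active. Translating ribosome affinity purification split each pool of 5 to 7 mice into an immunoprecipitate, enriched for RNA on tagged ribosomes, and the remaining supernatant. The 13 pools were 3 of intact females in diestrus, 3 of ovariectomized females, 4 of intact males and 3 of orchidectomized males, each with both fractions, which gives 8 groups and 26 libraries.

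Library totals lay between 27217253 and 56668582 counts. Gnrh1, the check of the pull-down, ranged from 3174 to 20931 CPM (counts scaled to the size of the library) in the immunoprecipitates and from 47.5 to 1579 CPM in the supernatants, without overlap. The highest supernatant was that of intact female replicate 2, whose immunoprecipitate was also the lowest in Gnrh1. In that pool Gnrh1 was only 2.01-fold higher in the immunoprecipitate than in the supernatant, against 11.2-fold to 313-fold in the other pools. Libraries numbered 1 to 10 in the labels (4 pools of intact mice) stood at 16896 to 20931 CPM of Gnrh1 in the immunoprecipitate, and the 9 later pools, numbered 11 to 30, at 3174 to 8774 CPM. Astrocyte, oligodendrocyte, microglia and blood markers were lower in the immunoprecipitate for 6, 8, 5 and 3 members and higher for 0, of 8, 8, 8 and 4 tested. Markers of choroid plexus and ependyma gave 1 higher and 3 lower of 8, those of endothelial and mural cells 4 and 1 of 8, and pituitary hormone genes 2 and 0 of 4 tested. Over all 16713 genes tested, 21.3% were higher and 21.6% lower.

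All 7 transcripts were measured in every library of both fractions, and their order of level was led by the 2 convertase-binding proteins. Levels are compared between genes only as CPM per kb of exonic length. In the immunoprecipitates Pcsk1n was highest at 997 ± 344 CPM per kb (SD, n = 13 libraries), followed by Scg5 at 307 ± 153, Scg2 at 110 ± 34, Chga at 62.7 ± 12.1, Chgb at 35.5 ± 9.5, Scg3 at 29 ± 9.3 and Vgf at 25.2 ± 8.3. Each gene was above the next in 13 of 13 libraries, except that Chgb exceeded Scg3 in 11 and Scg3 exceeded Vgf in 9, so the last 3 lay within each other's spread. The supernatants began with the same 4 genes, Pcsk1n at 716 ± 138, Scg5 at 177 ± 40, Scg2 at 114 ± 37 and Chga at 74.6 ± 17.1 CPM per kb. There Vgf was the fifth at 60.0 ± 19, ahead of Chgb at 38.0 ± 7.7 and Scg3 at 21.2 ± 3.9, and above Chgb in 13 of 13 libraries. Scg2 exceeded Chga in 12 of the 13 supernatants and every other neighbour held its place in all 13.

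**Figure D1:**
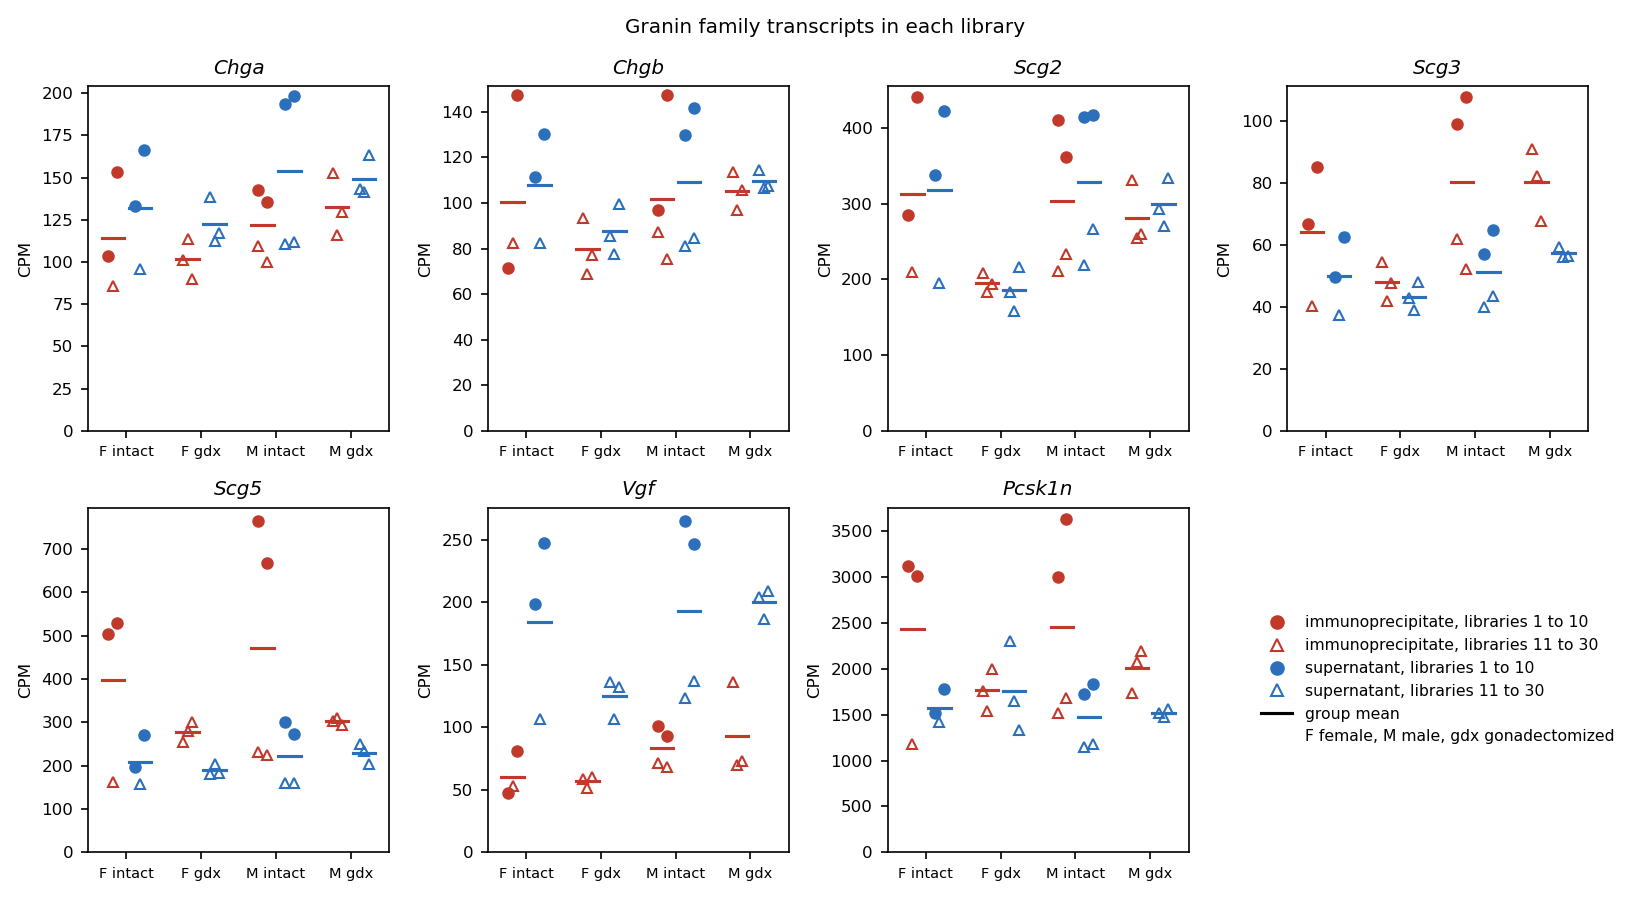
CPM of each of the 7 transcripts in every library, by condition (horizontal axis), fraction (red immunoprecipitate, blue supernatant) and library numbering (filled circles 1 to 10, open triangles 11 to 30), with bars at group means and vertical axes from 0. Vgf sits lower in the immunoprecipitates, and the filled circles lie above the open triangles of intact mice for all 7 genes in the supernatant.

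Start-site sequences are shown because 5 of these genes carry the core of the cyclic AMP response element, a motif bound by CREB-type factors. RefSeq promoter windows on GRCm38.p6, from 250 bases before to 50 bases after the start, were matched for 6 of the 7 members. Vgf had no window in the set used and was not searched. The half-site TGACG, read on both strands, occurred in the windows of 5 of these 6, and in 20.8% of all 32851 windows. The full palindrome TGACGTCA, which contains the half-site, occurred in Chgb and Scg2 and in 1.79% of all windows. TATAAA, also read on both strands, occurred only in Chga among the 6 and in 13.6% of all windows. For each gene the match with the greatest distance upstream of the start is given 5′ to 3′ on the gene's strand, with the 8 bases that begin at the half-site in capitals.
Chga: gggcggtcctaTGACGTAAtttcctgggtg
Chgb: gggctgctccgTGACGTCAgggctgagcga
Scg2: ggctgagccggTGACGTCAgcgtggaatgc
Scg3: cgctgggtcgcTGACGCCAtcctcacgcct
Scg5: aaggaggtaaaTGACGTTCataggggtcga
These windows lie at chr12:102554886-102554915 for Chga, chr2:132781559-132781588 for Chgb, chr1:79440076-79440105 for Scg2, chr9:75684068-75684097 for Scg3 and chr2:113829248-113829277 for Scg5. The first capital stood 44, 72, 68, 30 and 175 bases before the RefSeq start of Chga, Chgb, Scg2, Scg3 and Scg5, in that order. The windows of Chgb and Scg2 fall inside the longer GENCODE gene models. A match of letters is not evidence of binding, and no factor was measured.

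Between the fractions, the family split rather than moving as a block: Scg3, Scg5 and Pcsk1n were higher in the immunoprecipitate, Vgf was lower, and Chga, Chgb and Scg2 did not pass. That is 3 of 7 higher and 1 of 7 lower, where 21.3% of the 16713 genes tested were higher and 21.6% lower (edgeR quasi-likelihood test, adjusted p under 0.05). This test did not pair the fractions by pool, and with the pool as a block Chga passed as well, as lower. The median log2 fold change was -0.04 over the 7 members and -0.06 over all tested genes. In these bulk samples, fewer cells of a type and less RNA per cell cannot be told apart.

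Chga encodes chromogranin A, a driver of vesicle formation and the precursor of several regulatory peptides (mm10, chromosome 12, 102554969 to 102565028, plus strand). It ranged from 85.7 to 153.6 CPM with a median of 113.7 in the immunoprecipitates, and from 95.8 to 198.6 with a median of 138.6 in the supernatants. The ranges overlapped, with the immunoprecipitate lower in 11 of 13 pools. The log2 fold change was -0.24 ± 0.11 (SE; edgeR adjusted p = 0.0877). With the pool as a block it was -0.24 and passed (edgeR adjusted p = 0.00947). It also passed without the immunoprecipitate of intact female replicate 1 (-0.31, edgeR adjusted p = 0.0250) or the supernatant of intact female replicate 2 (-0.29, edgeR adjusted p = 0.0411).

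Chgb, which encodes chromogranin B, a second major granin of vesicle cores (chromosome 2, 132781278 to 132795079, plus strand), ranged from 68.8 to 147.4 CPM in the immunoprecipitates and from 77.5 to 141.7 in the supernatants, with medians of 93.4 and 106.8. Its log2 fold change was -0.10 ± 0.12 (edgeR adjusted p = 0.546). Scg2, the secretogranin II gene and source of secretoneurin (chromosome 1, 79434669 to 79440120, minus strand), ranged from 182.8 to 440.9 CPM in the immunoprecipitates and from 158.0 to 422.3 in the supernatants, with medians of 254.2 and 270.9. Its log2 fold change was -0.04 ± 0.14 (edgeR adjusted p = 0.837). Both genes overlapped almost fully between the fractions, and the immunoprecipitate was the higher one in 4 pools for Chgb and 5 for Scg2.

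Scg3 encodes secretogranin III, which binds chromogranin A and the cholesterol-rich vesicle membrane (chromosome 9, 75643189 to 75684056, minus strand). Its immunoprecipitates ranged from 40.4 to 107.8 CPM with a median of 66.8, and its supernatants from 37.4 to 65.0 with a median of 49.8. Levels overlapped across pools, but within pools the immunoprecipitate was higher in 12 of 13. Scg3 rose 1.33-fold (log2 0.41 ± 0.13, edgeR adjusted p = 0.0114).

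Scg5 encodes 7B2, the chaperone and inhibitor of prohormone convertase PC2 (chromosome 2, 113776362 to 113829121, minus strand). The immunoprecipitates spanned 163.2 to 765.5 CPM with a median of 300.4, and the supernatants 157.4 to 300.1 with a median of 203.0. Scg5 was the only member higher in the immunoprecipitate of all 13 pools, and its 4 highest libraries were the immunoprecipitates numbered 1 to 10. It rose 1.67-fold (log2 0.74 ± 0.19, edgeR adjusted p = 0.00298). With the trend of fold change on gene length removed, the log2 value was 0.45 (edgeR adjusted p = 0.0220).

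Pcsk1n encodes proSAAS, an inhibitor of prohormone convertase PC1/3 and itself a peptide precursor (chromosome X, 7919822 to 7924410, plus strand). Immunoprecipitates ranged from 1184 to 3629 CPM with a median of 1991, and supernatants from 1148 to 2298 with a median of 1519. The fractions overlapped, with the immunoprecipitate higher in 10 of 13 pools. Pcsk1n rose 1.36-fold (log2 0.45 ± 0.15, edgeR adjusted p = 0.0172).

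Vgf encodes a nerve growth factor-inducible granin-like protein that is cut into several neuropeptides (chromosome 5, 137026392 to 137033351, plus strand). It ranged from 47.3 to 136.5 CPM with a median of 69.5 in the immunoprecipitates, and from 106.4 to 264.9 with a median of 187.0 in the supernatants. Only 1 immunoprecipitate, that of orchidectomized male replicate 0 at 136.5 CPM, reached into the range of the supernatants, and it was below its own supernatant at 203.9 CPM. Vgf fell 2.40-fold in the immunoprecipitate (log2 -1.26 ± 0.15, edgeR adjusted p = 3.2e-07) and was lower in 13 of 13 pools. That immunoprecipitate also held the highest sum of the 8 astrocyte markers (2033 CPM, against 358 to 662 CPM in the other 12), none of them at 0, and the part of this in its Vgf level was not tested.

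**Figure D2:**
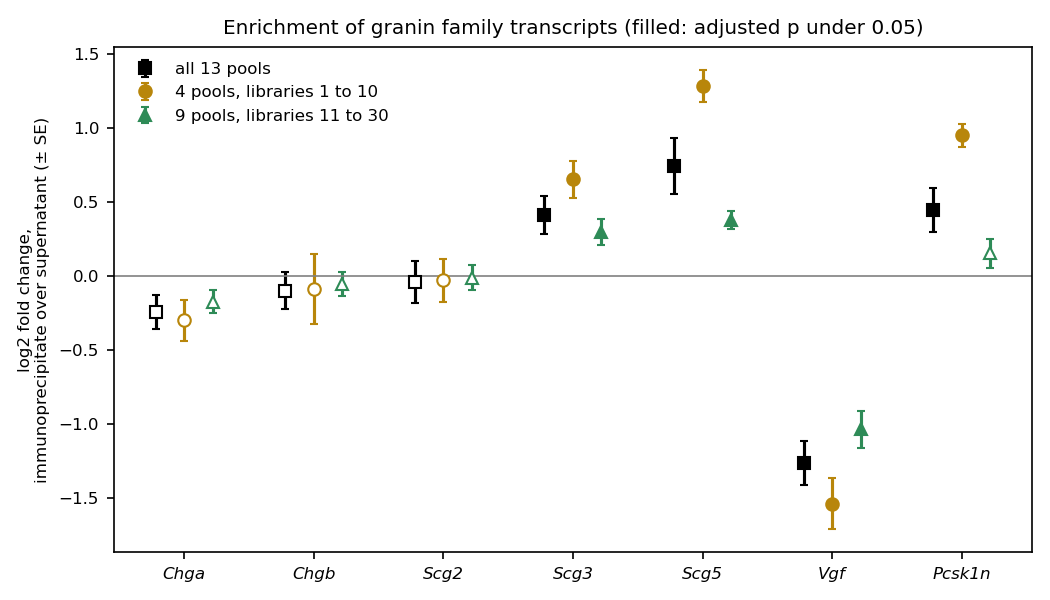
Log2 fold change of immunoprecipitate over supernatant (± SE) for the 7 transcripts in all 13 pools (black squares), the 4 pools numbered 1 to 10 (gold circles) and the 9 pools numbered 11 to 30 (green triangles), filled where the adjusted p is under 0.05. Scg3, Scg5 and Vgf are filled in every set, and Pcsk1n is open in the later pools at 0.15. Pools numbered 1 to 10 are all of intact mice, and those numbered 11 to 30 include gonadectomized mice.

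The enrichment was also fitted within each set of library numbers. In the 4 pools numbered 1 to 10 alone Scg3 was at 0.65, Scg5 at 1.29, Pcsk1n at 0.95 and Vgf at -1.54 on the log2 scale, and all 4 passed, against 19.1% of genes higher and 18.2% lower. In the 9 later pools Scg3 was at 0.30 (edgeR adjusted p = 0.0204), Scg5 at 0.38 (edgeR adjusted p = 0.000276) and Vgf at -1.04 (edgeR adjusted p = 1.1e-05), against 13.5% higher and 13% lower. Pcsk1n no longer passed there (0.15, edgeR adjusted p = 0.287). Per pool, Scg5 lay between 0.97 and 1.35 in the first set and between 0.05 and 0.72 in the later one. The Pcsk1n ratio was below 0 in 3 of the 9 later pools, all female (-0.26, -0.39 and -0.10). It was above 0 in the other 6, among them ovariectomized replicate 2 at 0.58. The first set holds only intact mice and the later one also gonadectomized mice, so the sets differ in gonadal state as well as in numbering.

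By condition, Vgf passed in all 4. In intact females its immunoprecipitates held 47.3, 81.1 and 52.8 CPM and the supernatants of the same pools 198.8, 247.3 and 106.4 (log2 -1.61 ± 0.31, edgeR adjusted p = 0.00133). In ovariectomized females the values were 58.7, 51.3 and 60.2 CPM against 136.3, 106.8 and 132.0 (-1.14 ± 0.31, edgeR adjusted p = 0.0244). In intact males they were 101.2, 93.1, 71.9 and 68.1 CPM against 264.9, 246.4, 123.6 and 137.3 (-1.21 ± 0.26, edgeR adjusted p = 0.00180). The 2 fractions did not overlap in any of these 3 conditions. Orchidectomized males held 136.5, 69.5 and 73.5 CPM against 203.9, 187.0 and 208.7 (-1.10 ± 0.30, edgeR adjusted p = 0.0202), again without overlap.

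The counts by condition were 1 of 7 members in intact females, 1 in ovariectomized females, 4 in intact males and 1 in orchidectomized males, where 18%, 6.28%, 25.9% and 10.7% of all tested genes passed in either direction. Intact males added Scg3 (0.64, edgeR adjusted p = 0.0400), Scg5 (1.08, edgeR adjusted p = 0.0231) and Pcsk1n (0.74, edgeR adjusted p = 0.0408), which rose. With the pool as a block Scg5 also passed in intact females (0.79, edgeR adjusted p = 0.0210; 0.94 and 0.104 without the block). So did Scg3 in orchidectomized males (0.48, edgeR adjusted p = 0.0444; 0.49 and 0.275 without the block). These calls rested on few libraries. Without the immunoprecipitate of intact male replicate 0 or 1, or the supernatant of intact male replicate 2 or 3, Vgf alone passed in intact males, where Scg5 was at 0.74, 0.86, 0.95 and 0.95. Without the supernatant of intact male replicate 0, Scg3 was at 0.70 there (edgeR adjusted p = 0.0549). Without the immunoprecipitate of intact female replicate 2, from the pool with the least Gnrh1 enrichment, Scg5 (1.38) and Pcsk1n (1.04) passed in intact females as well. The Vgf call was lost in ovariectomized females without any 1 of 5 of their 6 libraries (-1.07 to -1.19), the exception being supernatant replicate 1. In orchidectomized males it was lost without supernatant replicate 0 or 2 or immunoprecipitate replicate 1 or 2 (-0.93 to -1.09).

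Whether the enrichment itself changed with sex or gonadectomy was tested as a difference between conditions. None of the 7 members passed in any of the 4 such contrasts by edgeR, limma voom or DESeq2, and 0 of them had an unadjusted p under 0.05 in edgeR. Of all 16713 genes, 0%, 0%, 0.00598% and 0% passed in edgeR, for gonadectomy in females, in males, then sex in intact and in gonadectomized mice. In that order, 7.47%, 8.16%, 4.43% and 5.27% of them had an unadjusted p under 0.05. The members' differences ran from -0.67 to 0.47 on the log2 scale, with standard errors of 0.31 to 0.56.

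Genes that handle the same vesicles showed no uniform shift in the immunoprecipitate. For these lists and those that follow, 21.3% of all 16713 tested genes were higher and 21.6% lower. Of 14 peptide processing enzymes, 4 were higher and 1 lower, with a median log2 of 0.15. Qpct and Qpctl, which form the amino-terminal pyroglutamate found on GnRH, rose by 0.65 and 0.33, the convertase gene Pcsk4 by 0.53 and the protease gene Ctsl by 0.47. Pcsk2, which encodes PC2, the partner of the Scg5 product, fell by 0.30. Pcsk1, which encodes PC1/3, the enzyme bound by the Pcsk1n product, did not pass (0.17, edgeR adjusted p = 0.534).

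Among 25 genes of dense-core vesicle assembly and release, 5 were higher and 11 lower, with a median log2 of -0.18. Rab27b, a GTPase of vesicle docking, rose by 1.15, from a mean of 68.7 CPM in the supernatants to 153.0 in the immunoprecipitates. Arfip1 and Pick1, whose BAR-domain proteins act at budding granules, rose by 0.57 and 0.25, and Ica1, of the same protein class, by 0.20. The Rab effector genes Rph3a, Sytl4 and Sytl5 fell by 1.24, 1.01 and 0.87, and Ptprn, which encodes a granule membrane protein, fell by 0.77. Sytl4 and Sytl5 were low, at 8.88 and 3.57 CPM in the supernatants.

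Small synaptic vesicle proteins, the machinery of fast transmitter release, were lower for 12 and higher for 1 of 16, with a median log2 of -0.48. The calcium sensor gene Syt2 fell by 1.72, the inhibitory transmitter transporter gene Slc32a1 by 1.66, Sv2c by 1.20 and Syngr1 by 0.92. Slc17a6, a vesicular glutamate transporter gene, rose by 0.32. Of 6 markers of GnRH neurons 5 were higher and 0 lower, led by Gnrh1 (5.58), Six6 (4.01), Npffr1 (1.82) and Kiss1r (1.77). Of 8 pan-neuronal markers, Uchl1 (0.71) and Stmn2 (0.65) were higher and Map2 (-0.87), Rbfox3 (-0.35) and Snap25 (-0.17) lower. Of 8 markers of magnocellular and other peptide neurons, 5 were lower, the farthest being Pdyn (-0.84), Penk (-0.67), Trh (-0.62) and Oxt (-0.54), and 0 higher.

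**Figure D3:**
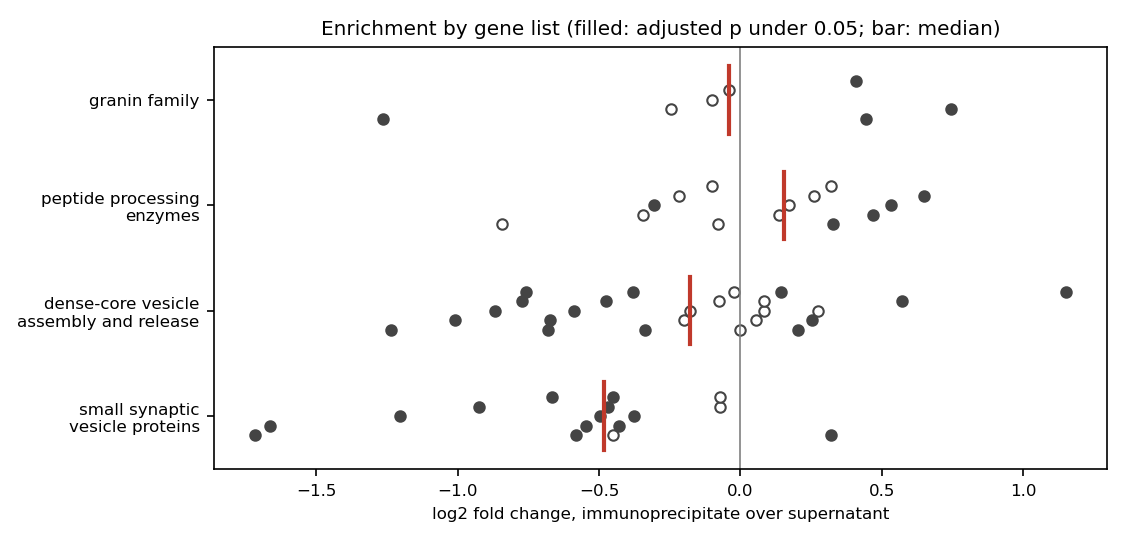
Log2 fold change of immunoprecipitate over supernatant for each tested gene of 4 lists, filled where the adjusted p is under 0.05, with a red bar at the list's median (vertical offsets within a list have no meaning). The granin family runs from -1.26 to 0.74 around a median of -0.04, and the small synaptic vesicle proteins around -0.48.

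Gonadectomy and sex within a fraction were compared next, to see whether gonadal state goes with the level of these transcripts. None of the 7 members passed in any of the 8 comparisons by edgeR, limma voom or DESeq2. In edgeR, 0%, 0%, 0.0248% and 0.0186% of 16160 genes passed in the immunoprecipitate (gonadectomy in females, in males, then sex in intact and in gonadectomized mice) and 0.0122%, 0%, 0.0428% and 0.0428% of 16360 in the supernatant. At an unadjusted p under 0.05 the members numbered 1, 0, 0 and 2 in the immunoprecipitate and 1, 0, 0 and 2 in the supernatant, in the same order. The shares of all tested genes under that limit were 3.66%, 9.34%, 4.11% and 8.59% in the immunoprecipitate and 7.31%, 2.73%, 3.71% and 21.1% in the supernatant.

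**Figure D4:**
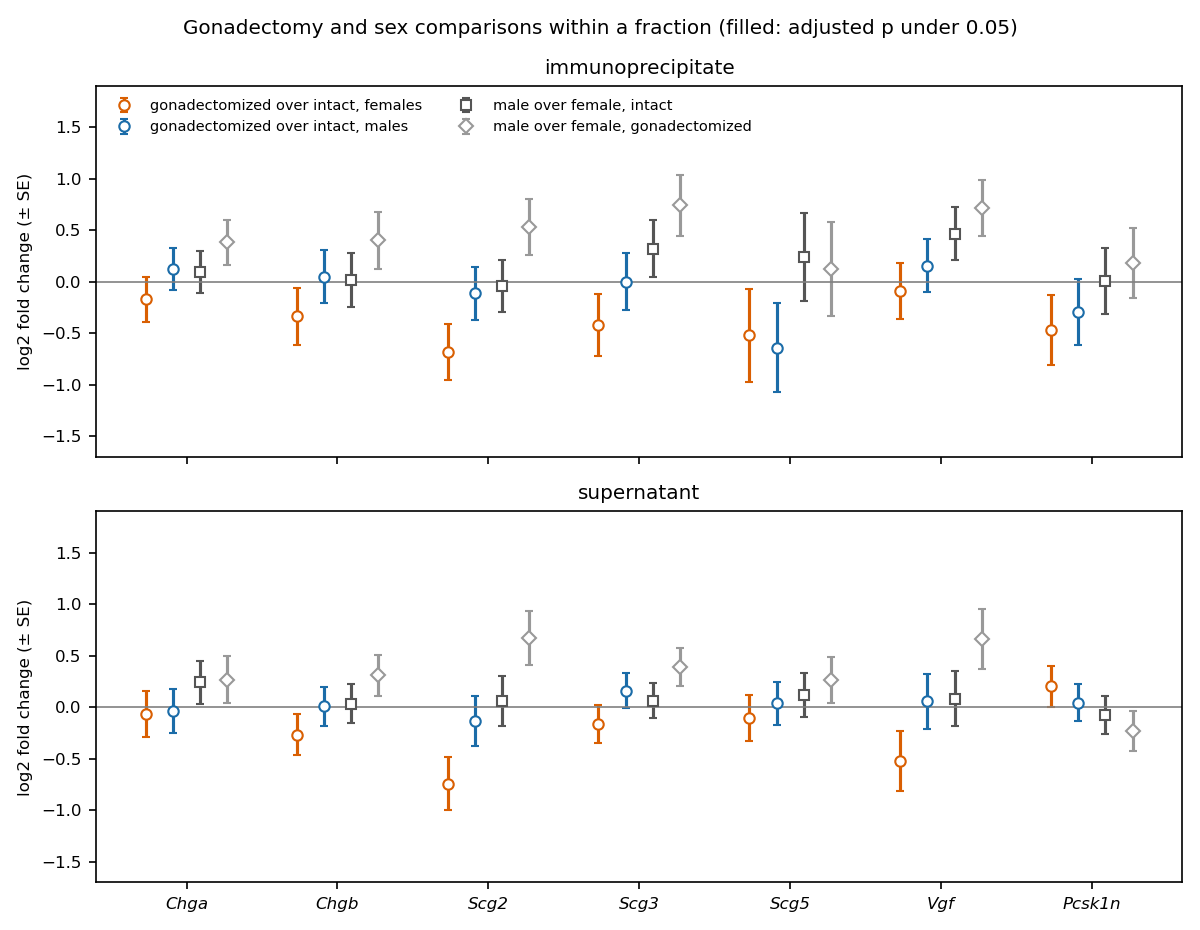
Log2 fold change (± SE) of each of the 7 transcripts for gonadectomy (circles) and sex (squares in intact, diamonds in gonadectomized mice) in the immunoprecipitates (top) and supernatants (bottom); open symbols did not pass an adjusted p under 0.05, and none passed. In gonadectomized mice the male over female values of Scg2, at 0.53 and 0.67, and of Vgf, at 0.72 and 0.66, are above 0 in both fractions, and the Vgf value in the immunoprecipitates is 0.32 without orchidectomized male replicate 0.

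In ovariectomized females the supernatants held 183.3, 158.0 and 216.2 CPM of Scg2, against 337.5, 422.3 and 195.3 in intact females. The groups overlapped through intact replicate 2, the only intact female pool numbered 11 to 30, and the log2 difference was -0.74 ± 0.26 (edgeR adjusted p = 0.653). Vgf in the same supernatants stood at -0.52 (edgeR adjusted p = 0.664), 0.21 with a term for the library numbering and 0.23 in the later libraries alone. Its sign therefore depended on the numbering.

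In the immunoprecipitates Scg5 held 503.0, 528.9 and 163.2 CPM in intact females and 253.7, 280.0 and 300.4 in ovariectomized ones. Intact males held 765.5, 668.2, 230.7 and 223.7 CPM and orchidectomized ones 303.5, 311.1 and 294.6. In both sexes the gonadectomized pools lay between the earlier and the later intact pools, so the groups overlapped. The log2 differences of gonadectomized from intact were -0.52 in females and -0.64 in males (edgeR adjusted p = 0.994 and 0.633), and 0.77 and 0.42 with a term for the numbering.

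Pcsk1n followed the same arrangement in the immunoprecipitates. It held 3118, 3006 and 1184 CPM in intact females, against 1754, 1542 and 1991 after ovariectomy. In males it held 2999, 3629, 1520 and 1681 CPM, against 1731, 2077 and 2197 after orchidectomy. The log2 differences of -0.47 and -0.30 (edgeR adjusted p = 0.994 and 0.799) became 0.44 and 0.38 with a term for the numbering.

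Between the sexes, gonadectomized males stood above gonadectomized females for most members, and these pools all fall among the later numbers. In the supernatants Scg2 held 293.2, 270.9 and 334.2 CPM in males and 183.3, 158.0 and 216.2 in females, without overlap (log2 0.67 ± 0.26, edgeR adjusted p = 0.159). Vgf held 203.9, 187.0 and 208.7 CPM in males against 136.3, 106.8 and 132.0 in females, without overlap (0.66 ± 0.29, edgeR adjusted p = 0.210). Scg3 held 59.5, 56.0 and 56.5 CPM against 43.1, 39.1 and 47.9, without overlap (0.39 ± 0.18, edgeR adjusted p = 0.241). Chga and Chgb did not overlap either, which makes 5 of 7 members higher without overlap, where 13.7% of genes were. DESeq2 called 1297 genes in this comparison, edgeR 7, and neither called a member.

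The same 5 genes, Chga, Chgb, Scg2, Scg3 and Vgf, were higher without overlap in the immunoprecipitates of the males, where 11.2% of genes were. The 2 fractions share their pools, so these are not independent. Scg3 held 91.2, 82.4 and 67.7 CPM in the male immunoprecipitates and 54.6, 41.8 and 47.8 in the female ones (0.74 ± 0.30, edgeR adjusted p = 0.560). Vgf in these immunoprecipitates differed by 0.72 (edgeR adjusted p = 0.560), and by 0.32 without orchidectomized male replicate 0, the library with the highest astrocyte marker sum. With a term for the numbering, Scg2 (0.67, edgeR adjusted p = 0.0176), Scg3 (0.39, edgeR adjusted p = 0.0488) and Vgf (0.66, edgeR adjusted p = 0.0114) passed in the supernatant, where 4.18% of genes were called higher. In the later libraries alone Scg2 (0.72, edgeR adjusted p = 0.0405) and Vgf (0.71, edgeR adjusted p = 0.0381) passed, against 1.51% of genes.

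Pool size cannot be told apart from sex in these mice, since the female pools held 7 animals and the male ones 5. Of the 13 other gene lists, 6 had summed levels that did not overlap between the sexes in these supernatants. Higher in males were the 14 processing enzymes (955 to 1064 CPM against 643 to 749), the 16 small synaptic vesicle genes (6248 to 7103 against 5535 to 5844), the 8 oligodendrocyte markers (2742 to 2932 against 2279 to 2502) and the 8 endothelial and mural markers (35.3 to 38.5 against 21.8 to 30.2). Lower in males were the 8 pan-neuronal markers (5868 to 5966 CPM against 6265 to 7511) and the 4 blood markers (48.8 to 58.5 against 59.5 to 159.2). In the immunoprecipitates the processing enzymes were higher in males (870 to 1449 CPM against 711 to 726), and the pan-neuronal markers (5691 to 6095 against 6832 to 7432) and the 25 genes of vesicle assembly and release (3612 to 3853 against 3906 to 4203) lower. No gene of these lists passed in either fraction, Hba-a1 and Hba-a2 among the blood markers were at 0 in some supernatants, and the part of these lists in the result was not tested.

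Because the library numbering split the members' levels, the intact pools numbered 1 to 10 were compared with the intact pools numbered 11 to 30, with sex as a term. This comparison was added after the data had been seen, and was chosen because these same members split. Its p-values and counts for the members therefore describe a split already seen and are not an independent test of it. The labels do not say what the numbering stands for, and it goes with pool size, 6 or 7 mice in the first set and 5 in the later, so neither can be told apart from the other.

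In the supernatants all 7 members were higher in the first set, where 12.2% of 16096 genes were. The log2 differences ran from 0.43 for Pcsk1n to 0.98 for Vgf, with edgeR adjusted p-values of 0.000581 to 0.0104. No member overlapped between the sets, where 14.7% of genes were higher without overlap. Without the pool of intact male replicate 2 Pcsk1n no longer passed (0.37, edgeR adjusted p = 0.0529). Beside the members, 10 of 14 processing enzymes, 7 of 8 peptide neuron markers, 6 of 8 astrocyte markers, 4 of 8 oligodendrocyte, 3 of 8 microglia and 2 of 7 choroid plexus and ependymal markers were higher and 0 lower. Synaptic vesicle genes gave 9 higher and 3 lower of 16, and vesicle assembly and release genes 5 and 10 of 25. The summed peptide neuron markers were at 1054 to 1331 CPM in the first set and 561 to 1169 CPM in all 9 later supernatants, none of the 8 genes was at 0, and their part in the result was not tested.

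In the immunoprecipitates 4 of 7 members were higher in the first set, where 8.2% of 15379 genes were. Scg5 differed most among the 7 (log2 1.64 ± 0.09, edgeR adjusted p = 0.000127), followed by Pcsk1n (1.16 ± 0.10, edgeR adjusted p = 0.000820), Scg3 (0.86 ± 0.15, edgeR adjusted p = 0.00695) and Scg2 (0.78 ± 0.15, edgeR adjusted p = 0.0128). These 4 were also the members without overlap, where 14.4% of genes were. Without intact female replicate 0 all 7 members passed, Chga at 0.55, Chgb at 0.67 and Vgf at 0.52. Scg2 did not pass without intact female replicate 2 (0.77, edgeR adjusted p = 0.0700) or intact male replicate 2 (0.73, edgeR adjusted p = 0.0687). Beside the members, 5 of 6 GnRH neuron markers, 3 of 8 peptide neuron markers, 2 of 14 processing enzymes and 1 of 3 tested pituitary hormone genes were higher in the first set and 0 lower. Synaptic vesicle genes gave 2 higher and 3 lower of 16, pan-neuronal markers 2 and 1 of 8, astrocyte markers 1 and 1 of 8, oligodendrocyte markers 0 and 1 of 8, and vesicle assembly and release genes 1 and 1 of 25. The lists of microglia, endothelial and mural, choroid plexus and ependymal, and blood markers had 0 genes called. Summed levels in the first set and in all 9 later immunoprecipitates were 17434 to 21554 and 3461 to 9216 CPM for the GnRH neuron markers, 15.3 to 28.6 and 5.44 to 11.3 CPM for the pituitary hormone genes, and 841 to 1351 and 484 to 900 CPM for the peptide neuron markers. The pituitary genes Cga, Lhb and Tshb were at 0 in some immunoprecipitates, no gene of the other 2 lists was, and the part of these lists in the result was not tested.

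The enrichment itself also differed between the sets, tested with the pool as a block. Scg5 was more enriched in the first set by 0.93 ± 0.12 (edgeR adjusted p = 0.00911) and Pcsk1n by 0.72 ± 0.15 (edgeR adjusted p = 0.0257), where 5.12% of 16380 genes were called in that direction. Vgf was more depleted, by -0.63 ± 0.15 (edgeR adjusted p = 0.0418), where 2.07% of genes were. The Vgf value did not pass without the block (-0.61, edgeR adjusted p = 0.108). Without intact male replicate 2 or 3 none of the 3 passed, with Scg5 at 0.97 and 0.94, Pcsk1n at 0.77 and 0.82 and Vgf at -0.61 and -0.73. Without intact male replicate 1 or intact female replicate 2 only Scg5 did, with Pcsk1n at 0.75 and 0.54 and Vgf at -0.66 and -0.39. Without intact male replicate 0 Vgf did not (-0.67). Intact female replicate 2 is the pool with the least Gnrh1 enrichment, and its part in these differences beyond these fits was not tested.

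Within the 9 later immunoprecipitates, levels of Pcsk1n and Scg5 were correlated with Gnrh1. These libraries come from 4 conditions that differ in Gnrh1, at 3174 to 4616 CPM in the 3 intact pools and 4426 to 8774 in the 6 gonadectomized ones, and the permutation treats them as exchangeable. Pearson's r of log2 CPM was 0.91 for Pcsk1n (exact permutation p = 0.000796, adjusted over the 7 members 0.00557) and 0.76 for Scg5 (exact permutation p = 0.0142, adjusted 0.0498). Spearman's rho was 0.80 (exact permutation p = 0.0138, adjusted 0.0968) and 0.55 (exact permutation p = 0.133, adjusted 0.465), so by rank neither passed after adjustment. Without the 2 libraries farthest from the median of Gnrh1, r was 0.88 and 0.75. Within the orchidectomized males, Scg5 at 303.5, 311.1 and 294.6 CPM stood beside Gnrh1 at 4426, 7406 and 8743 CPM, so it did not rise with Gnrh1 there. Pcsk1n in these libraries, at 1731, 2077 and 2197 CPM, did rise. It also rose in ovariectomized females, at 1542, 1754 and 1991 CPM beside Gnrh1 at 5096, 6558 and 8774. In intact male replicates 2 and 3 it was at 1520 and 1681 CPM beside Gnrh1 at 4616 and 4527, and did not. The lowest Scg5 value, 163.2 CPM, and the lowest Gnrh1 value belong to the single later pool of intact females. A relation within conditions cannot be told apart from differences between them with 1 to 3 libraries each. The other 5 members gave r of -0.05 to 0.26 and did not pass. No r is given over all 13 immunoprecipitates, because Gnrh1 falls into 2 separate clusters there.

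**Figure D5:**
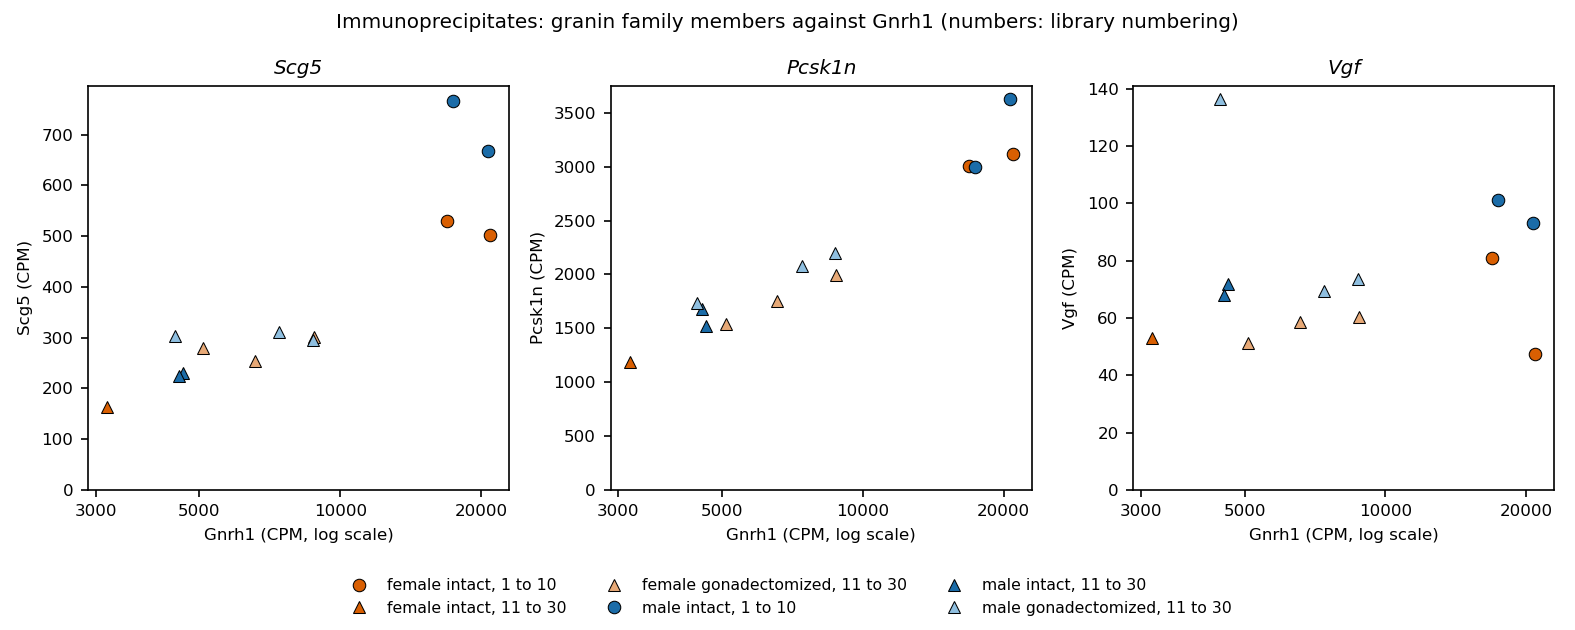
CPM of Scg5, Pcsk1n and Vgf (vertical axes from 0) against Gnrh1 (horizontal log axis) in the 13 immunoprecipitates, coloured by condition, with circles for libraries 1 to 10 and triangles for 11 to 30. The 4 circles lie apart at the right, and within the triangles, which span 4 conditions, Pearson r of Pcsk1n with Gnrh1 is 0.91.

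Correlations between members reached lower values in the supernatants than in the immunoprecipitates, through pairs with Pcsk1n. Among pairs without Pcsk1n the lowest r was that of Scg2 with Scg5 in both fractions, at 0.33 in the immunoprecipitates and 0.39 in the supernatants. Over the 9 later libraries of a fraction, the 21 pairs of members had Pearson r of log2 CPM from 0.29 to 0.91 in the immunoprecipitates, with a median of 0.69, and from -0.31 to 0.97 in the supernatants, with a median of 0.75. The 9 libraries span 4 conditions. Chga, Chgb, Scg2, Scg3 and Vgf did not overlap between gonadectomized males and females in either fraction. Differences between conditions enter these values, so they are descriptions.

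Over all 26 libraries, 10701 genes averaging at least 5 CPM were ranked by Pearson r of log2 CPM with each member, leaving out members, predicted genes, ribosomal protein genes and mitochondrially encoded genes. Vgf was most like Gabbr1 (0.96), Spock2 (0.96) and Sez6l2 (0.95), which encode a GABA receptor subunit, an extracellular proteoglycan and a neuronal membrane protein. Pcsk1n was most like Ly6h (0.97), Ssr4 (0.95) and Rabac1 (0.94), and Scg5 like Mcfd2 (0.96), Sdf2 (0.95) and Tmem9 (0.95). Scg3 was most like Pdia3 (0.96), which encodes a disulfide isomerase of the endoplasmic reticulum, Itm2b (0.95) and Itm2c (0.94). Scg2 was most like Calr (0.88), the calreticulin gene, Galntl1 (0.87) and Prkcsh (0.87). Chga was most like Cadm1 (0.91), Atp1b1 (0.91) and Slc22a17 (0.89), and Chgb like Ggt7 (0.90), Spns1 (0.88) and Scap (0.83). Fraction and numbering differ among the 26 libraries and enter these values, which carry no test.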

How the data were processed

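RNA of both fractions of 13 pools was sequenced after SMART-Seq amplification, a kit that does not mark strand, per the labels' protocols. The deposited table holds estimated counts per gene, which per the submitters' processing notes were made on mm10 with Cuffdiff 2.1.1 and Cufflinks after alignment tools that included Bowtie2 2.1.0 and TopHat2 2.0.9. The sources used here do not give the annotation or the handling of multiply mapped reads. Of the deposited values 98.5% were whole numbers, and the rest were rounded. Amplified reads are not independent molecules, so counts cover counting error only, and genes that overlap another gene are uncertain without strand.

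The 2-sided quasi-likelihood F-test of edgeR 4.0.16 (R 4.3.3) was run with TMM factors on genes kept by filterByExpr (count minimum 10, total minimum 15). P-values were adjusted by Benjamini-Hochberg over all tested genes and called under 0.05. Enrichment and its differences used all 26 libraries in 8 groups; comparisons within a fraction used its 13 libraries. CPM were scaled with TMM. The common biological coefficient of variation was 0.56 in the immunoprecipitates and 0.181 in the supernatants. The labels state that each pool gave both RNAs, so the pool pairs the fractions; the correlation of a pool's deviations was 0.014 to 0.17. Alternatives were DESeq2 1.42.0 and its size factors, library totals, no filter, limma 3.58.1 voom, a pool block, a length trend, the library numbering and leaving out each library. Scripts were tested on simulated data. Positions and exonic lengths are from GENCODE M21 on mm10.

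The members, the 14 lists (135 of 136 genes matched, 7 by a synonym) and the tests were chosen with earlier results of these data known. Named genes are the 7 members, Gnrh1, up to 4 called genes per list and direction in the enrichment, every called list gene in the comparisons of sex and gonadectomy, and the 3 genes most like each member. Pcsk1 was named after its value was seen. Replicates are separate pools of mice.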

Additional observations from a re-analysis of the deposited data

Results flagged for a closer look

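The enrichment of 3 members differed between intact pools numbered 1 to 10 and 11 to 30 by a test of the difference itself with the pool as a block. The comparison was added after the members' levels had been seen to split by the numbering. Scg5 differed by 0.93, Pcsk1n by 0.72 and Vgf by -0.63 on the log2 scale (edgeR adjusted p = 0.00911, 0.0257 and 0.0418). Gnrh1 in the immunoprecipitates averaged 18980 CPM in the first set (4 pools) and 4106 CPM in the later intact pools (3 pools), and its part in these differences was not tested.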

How the results depend on the processing

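Over settings other than leaving out a library, 424 single values kept direction and call, 26 gained a call, 18 lost one and 12 reversed; 165 counts of members stayed within 1.5 times and 21 moved. Members called in intact females were 1, and 2 with DESeq2 or the pool as a replicate block, 0 in libraries 11 to 30 alone and 3 in libraries 1 to 10 alone, each also with the block. In ovariectomized females 1 became 0 with limma voom and 2 with the block and length trend, or in libraries 11 to 30 with or without the block. In intact males 4 became 2 with library totals, limma voom, the length trend, or libraries 11 to 30 with or without the block. In orchidectomized males 1 became 2 with the block, with or without the length trend, and 3 in libraries 11 to 30 with or without the block. Between gonadectomized sexes in the supernatant 0 became 3 with a numbering term and 2 in libraries 11 to 30. Leaving out each library gave 1 to 3 in intact females, 0 to 1 in ovariectomized females, 1 to 4 in intact males and 0 to 1 in orchidectomized males. Leaving out each pool of the numbering comparison gave 3 to 7 in the immunoprecipitate, 6 to 7 in the supernatant and 0 to 3 for the enrichment.

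Pcsk1n in intact females reversed to -0.26 in libraries 11 to 30 with or without the block. Replicate 2 is the only intact female pool there, so this value is the ratio of that pool. Gonadectomy values in the immunoprecipitate reversed with a numbering term and in libraries 11 to 30 alone: Scg5 to 0.77 and 0.77 in females and 0.42 and 0.41 in males, Pcsk1n to 0.44 and 0.58 in females and 0.38 and 0.32 in males. Vgf in the female supernatant reversed to 0.21 and 0.23. In libraries 11 to 30 alone, these female values set the ovariectomized pools against that same intact pool only. Leaving out single libraries, Scg2 over all conditions ran from -0.13 to 0.036 and Pcsk1n in ovariectomized females from -0.16 to 0.24. Leaving out single pools, with both fractions, the difference in Scg2 enrichment by numbering ran from -0.14 to 0.12. The causes were not tested. All genes called in the enrichment numbered 7167, and 4606 in libraries 11 to 30 alone. The pool block changed no other member's call than those named here and in the report.

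Over all genes, DESeq2 called more than edgeR in differences of enrichment (10, 17, 9 and 11 against 0, 0, 1 and 0), in differences by numbering (2566 against 1178, and 3226 against 1986 in the immunoprecipitate) and between gonadectomized sexes in the supernatant (1297 against 7, with 1080 under a numbering term and 269 in libraries 11 to 30). In ovariectomized females, intact males and orchidectomized males, 1050, 4325 and 1782 calls became 1985, 1356 and 2954 in libraries 11 to 30. For the 3005 calls in intact females no such count is given, because only replicate 2 falls there. In the immunoprecipitate, DESeq2 called 5, 24, 19 and 30 genes against 0, 0, 4 and 3. In the supernatant, gonadectomy gave 8 and 5 against 2 and 0. Immunoprecipitates spread more between pools than supernatants (biological coefficient of variation 0.56 against 0.181), which limits small differences there.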
